A study of Drosophila melanogaster with 29 samples.

Results

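CG14687 (FBgn0037835), CG14342 (FBgn0031324) and Mcm5 (FBgn0017577) are the 3 genes described here, out of 17612 genes measured in central complex neurons of the fly brain. They were chosen on their counts: high in R4d neurons and near none in PEN2 neurons or in central brain RNA of the same low-cell protocol. No numeric threshold was set, and other genes with a like pattern, counted below, were not among those chosen. Their low-cell levels are therefore given as a description, and tests are given only for libraries or genes that the choice did not use.

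Mcm5 is a subunit of the minichromosome maintenance (MCM) helicase, the ring that is loaded onto replication origins before S phase and that unwinds DNA at the replication fork. Genes of this machinery are mainly known from dividing cells, whereas adult central brain neurons are postmitotic. CG14687 and CG14342 are protein-coding genes that carry only systematic names in the tables, and no role is given to them here. R4d neurons are GABA-releasing ring neurons of the ellipsoid body, while PEN1, PEN2, EPG, PEG and D7 neurons are columnar or bridge neurons of the circuit that tracks heading direction.

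All flies were female and 3 to 5 days old, and sorted cells carried the nuclear reporter nls-tdTomato under 1 split-Gal4 line per library and were collected by fluorescence-activated sorting. The low-cell libraries were 7 of R4d (line SS00238, 40 cells each; the design text speaks of 9), 14 of PEN2 (line SS02232, 35 cells each) and 8 of central brain RNA without optic lobes (CB, 50 pg each). The 7 R4d libraries stand under 1 sample entry, as do the 8 CB libraries, and the 14 PEN2 libraries stand under 2. The bulk libraries were 4 of D7 (lines SS02238 and SS30295), 4 of EPG (SS00096 and SS00131), 2 of PEG (SS02191), 2 of PEN2 (SS02232) and 2 of whole brain RNA (WB, 5000 pg each). Single cells came on 11 plates, 6 of PEN1 (line SS62862) and 5 of PEN2 (line SS02232). R4d neurons were sequenced with the low-cell protocol alone. In sorted and brain libraries alike, fewer cells of a type and less RNA per cell cannot be told apart.

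Gene counts ran from 1001162 to 1154010 per R4d library, from 399694 to 500622 per PEN2 library and from 340527 to 415414 per CB library, so each level is given as counts per 1000000 gene counts (CPM). The R4d label was checked against markers of transmitters and of glia. Gad1, the GABA-synthesis enzyme, averaged 631 CPM in R4d, against 8.74 in PEN2 and 459 in CB. VGAT, the vesicular GABA transporter, averaged 136 CPM in R4d, 47.6 in PEN2 and 197 in CB. By edgeR's quasi-likelihood test both were called higher in R4d than in PEN2 (adjusted p = 3.05e-10 for Gad1 and 0.0114 for VGAT), and neither was called between R4d and CB (adjusted p = 0.644 and 0.609). These calls depend on the fit. With only the 2 types compared in the fit, edgeR called Gad1 higher (adjusted p = 0.00264) and VGAT lower (0.0141) in R4d than in CB. In that setting Gad1 was still called higher in R4d than in PEN2 (adjusted p = 1.11e-07), but VGAT was not called (0.0696). The glial genes alrm, repo, moody and wrapper had 0 counts in all 7 R4d libraries, and the 6 glial markers together summed to 0 to 33.9 CPM in R4d, against 0 to 83.5 in PEN2 and 3676 to 4055 in CB. ChAT, which makes acetylcholine, averaged 15.3 CPM in R4d, against 2227 in PEN2 and 768 in CB, and VGlut, the vesicular glutamate transporter, had 0 counts in R4d, 0.347 CPM in PEN2 and 138 in CB. The reporter had 6408 to 10686 counts per R4d library, 319 to 2271 per PEN2 library and 11 to 24 per CB library.

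CG14687 was present in every R4d library at 6563 CPM or more. Its R4d levels were lowest at 6563, 7379 at the median and highest at 7825 CPM, on 7280 to 8152 counts per library. In PEN2 it had 0 counts in 12 of 14 libraries, and 1 and 2 counts in the other 2. In CB its levels were lowest at 75.6, 100.5 at the median and highest at 119 CPM, on 31 to 46 counts per library. The 3 groups did not overlap, with R4d above CB and CB above PEN2. The mean was 7254 ± 448 CPM in R4d (SD, n = 7), 0.515 ± 1.38 in PEN2 (SD, n = 14) and 101 ± 17.1 in CB (SD, n = 8). CG14687 alone took 0.724% of all gene counts of R4d. Over pooled counts, R4d stood 72.4-fold above CB (95% interval 64.7 to 81.1), an interval that covers counting error only. Against PEN2 the ratio was 15302 (95% interval 5236 to 74201), which rests on 3 PEN2 counts, 2 of them in 1 library; without that library it was 42828.

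CG14342 had counts in R4d alone among the low-cell groups. Its R4d levels were lowest at 182, 195 at the median and highest at 236 CPM, on 182 to 252 counts per library, with a mean of 203 ± 21.3 CPM (SD, n = 7). All 14 PEN2 libraries and all 8 CB libraries held 0 counts. With 3 counts over the group taken as the limit that a count of 0 allows, PEN2 lay under 0.473 CPM and CB under 0.959 CPM. R4d was thus at least 428-fold higher than PEN2 and at least 211-fold higher than CB.

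Mcm5 was also found in all 7 R4d libraries, with a wider spread. Its R4d levels were lowest at 104, 173 at the median and highest at 306 CPM, on 111 to 316 counts per library, with a mean of 193 ± 77.0 CPM (SD, n = 7). All 14 PEN2 libraries held 0 counts, and CB held 2 counts in 1 library, 1 in another and 0 in the other 6. R4d was at least 407-fold higher than PEN2. Over CB the ratio was 201 (95% interval 68.5 to 974), and 536 without the CB library that held 2 of the 3 counts. Every R4d library lay above every CB library for 3 of 3 members, against 4.98% of the 11628 genes with a count in any low-cell library, and above every PEN2 library for 3 of 3 members, against 2.13% of those genes. The choice used these values, so nothing is read from these shares.

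**Figure D1:**
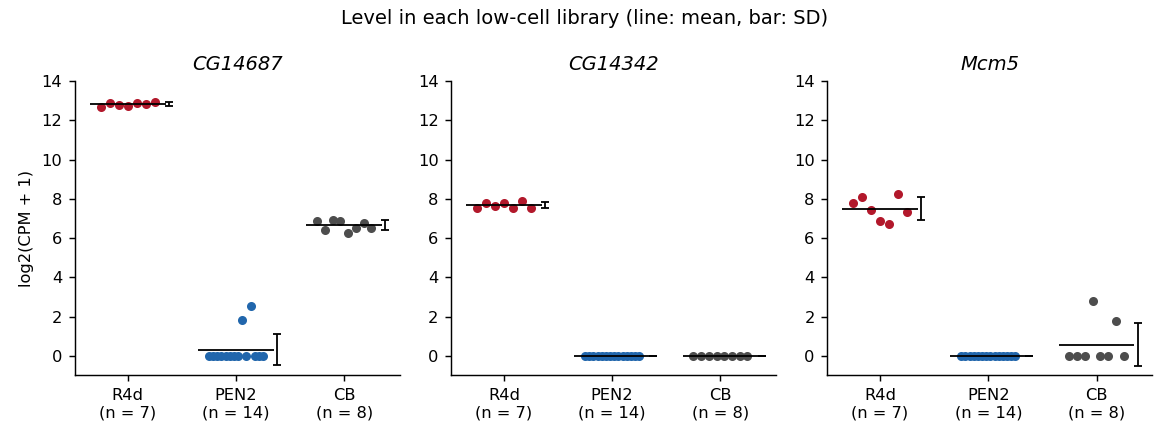
Level of each gene in every low-cell library, as log2(CPM + 1) on the vertical axis, by group; points are libraries, lines are means and bars are SD. All R4d points lie above all PEN2 and CB points in each panel, and CG14687 alone has counts in all 8 CB libraries.

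How much the members varied between R4d libraries was not part of the choice. CG14687 had a coefficient of variation (SD over mean) of 6.18%, where counting error alone would give 1.14%. Of the 22 genes within 2-fold of its mean level, 31.8% had a smaller one. CG14342 had 10.5%, against 6.80% from counting alone, and 1.34% of the 1123 genes within 2-fold of its mean level had a smaller one. Mcm5 had 39.9%, against 6.97% from counting alone, and 83.1% of the 1157 genes within 2-fold of its mean level had a smaller one. The highest R4d library held 2.95 times the Mcm5 level of the lowest one, against 1.30 times for CG14342 and 1.19 times for CG14687. CG14342 was among the steadiest genes of its level, while Mcm5 was among the more variable ones.

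No pair of members was found to rise and fall together over the 7 R4d libraries. On log2(CPM + 1), CG14687 and Mcm5 had Pearson's r of -0.06 (exact permutation p = 0.883, adjusted 0.984) and Spearman's rho of -0.21 (exact p = 0.662, adjusted 0.662). CG14687 and CG14342 had r of 0.00098 (exact p = 0.984, adjusted 0.984) and rho of -0.29 (exact p = 0.556, adjusted 0.662). CG14342 and Mcm5 had r of 0.44 (exact p = 0.313, adjusted 0.939) and rho of 0.39 (exact p = 0.396, adjusted 0.662). These 3 pairs were all that were compared, with two-sided tests adjusted over the 3. Without the 2 libraries farthest from the median of the first gene, r was -0.32, -0.37 and 0.56 in the same order. A p that misses the threshold at n = 7 does not show that the levels were unrelated.

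Mcm5 and CG14687 are neighbours in the genome. In the RefSeq table of Release 6 both lie on the plus strand of chromosome arm 3R, with 0 genes between them and Mcm5 on the upstream side. CG14342 lies on the plus strand of arm 2L. No annotated gene overlapped CG14687 or CG14342, and overlap with Mcm5 was not examined. The build of the deposited tables is not given in the sources used here, so the reference was used for gene order alone.

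In R4d and CB libraries Mcm5 had fewer counts than CG14687, without scaling to gene length. In R4d there were 2.66 Mcm5 counts per 100 CG14687 counts (95% interval 2.52 to 2.80, 1440 against 54202 counts), with single libraries from 1.36 to 4.15. In CB there were 0.958 (95% interval 0.197 to 2.83, 3 against 313 counts). The CB interval holds the pooled R4d value, so a difference in the proportion of the 2 genes was not detectable at this depth.

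The genes on either side of the pair did not share its R4d level. Art1, which encodes an arginine methyltransferase and is the next gene upstream on the other strand, averaged 29.6 ± 19.2 CPM in R4d, 29.8 ± 45.9 in PEN2 and 46.4 ± 21.8 in CB (SD, n = 7, 14 and 8). It was not called between R4d and CB by edgeR's quasi-likelihood test (adjusted p = 0.752), nor between R4d and PEN2 (adjusted p = 0.942). Downstream of CG14687, CG14692 averaged 2.54 CPM in R4d, 0.328 in PEN2 and 0.906 in CB, and CG14693 averaged 0 CPM in R4d, 1.44 in PEN2 and 0 in CB. Both were too low to be tested.

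Around CG14342 no gene had counts in R4d. CG5011 and CG43349 on one side, and lncRNA:CR45346 and lncRNA:CR43263 on the other, each had 0 counts in all 7 R4d libraries. Of these, CG5011 averaged 0.304 CPM in CB and lncRNA:CR45346 averaged 0.302 CPM in PEN2, on the few counts that either group held.

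**Figure D2:**
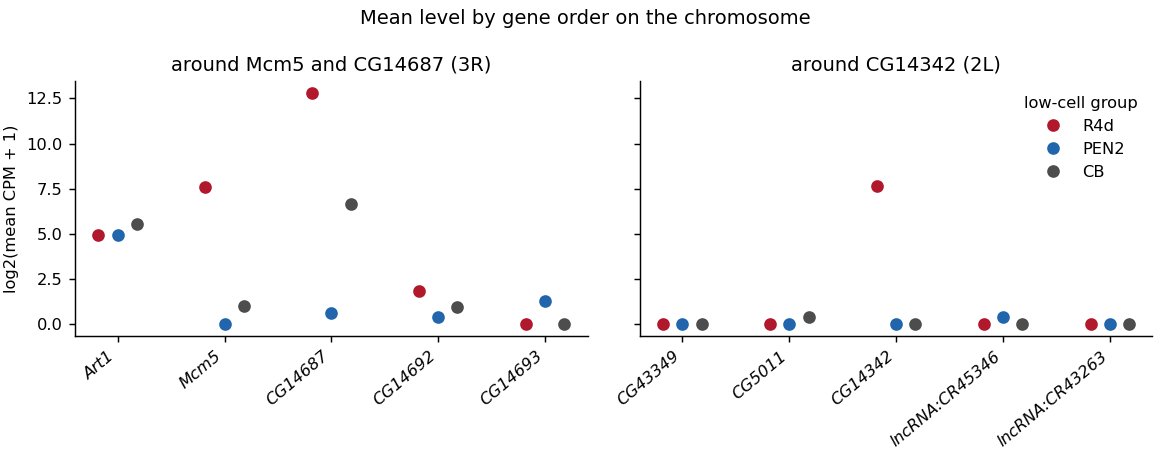
Mean level of the members and the genes next to them in R4d, PEN2 and CB, as log2(mean CPM + 1) on the vertical axis, in gene order on the horizontal axis (spacing not to scale). In R4d, Mcm5 stands at 193 CPM and CG14687 at 7254 CPM between Art1 at 29.6 CPM and CG14692 at 2.54 CPM, and CG14342 at 203 CPM stands between genes at 0.

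Of the 5 other genes of the MCM helicase, 3 had 0 counts in R4d. Mcm2 and Mcm7 had 0 counts in every low-cell library, and Mcm3 had 0 in R4d, 0 in PEN2 and 3 in CB. The gene dpa, which encodes Mcm4, had 80 counts in R4d, in 3 of 7 libraries, against 17 counts in 3 of 14 PEN2 libraries and 5 counts in 2 of 8 CB libraries. Mcm6 had 58 counts in 3 of 7 R4d libraries, against 5 in 2 of 14 PEN2 libraries and 6 in 1 of 8 CB libraries. Mcm5, with 1440 counts, was the one MCM gene with counts in all 7 R4d libraries. These 5 other MCM genes were all too low to be tested, and counts were not scaled to gene length.

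Most genes that load the helicase, copy DNA or drive division were too low to be tested. Of 15 licensing and helicase activation genes, 15 DNA synthesis genes and 15 cell division genes, together with the 5 other MCM genes, 11 of 50 passed the filter on low counts. None of the 11 was called between R4d and CB, higher or lower, by edgeR at an adjusted p under 0.05, and 0 had an unadjusted p under 0.05; DESeq2 also called 0. Across all 5553 genes tested in that comparison, 10.9% were called higher in R4d and 16.5% lower. Between R4d and PEN2 again 0 of the 11 were called by edgeR or by DESeq2, with 1 at an unadjusted p under 0.05 by edgeR, against 11.9% of all tested genes called higher and 11.3% lower. The median log2 change of the 11 was 0.15 over CB and -0.18 over PEN2, beside -0.09 and 0.05 over all genes tested. With only 11 genes tested, nothing is read from 0 calls beside these shares. Of the 39 not tested, Sld5, a subunit of the GINS complex, averaged 10.7 CPM in R4d, 0.143 in PEN2 and 4.11 in CB (82, 1 and 13 counts). DNApol-delta, a replicative polymerase, averaged 8.58 CPM in R4d, 0 in PEN2 and 14.6 in CB (64, 0 and 45 counts). Without the filter edgeR called both higher in R4d than in PEN2 (adjusted p = 0.000229 and 0.000364). In that fit 4 of the 50 genes were called higher and 4 lower in R4d than in PEN2. Against CB, 0 were called higher in R4d and 9 lower. Of all 11628 genes in that fit, 733 were called higher and 2117 lower in R4d than in CB. Against PEN2 the numbers over all genes were 1229 higher and 997 lower. Some of the calls among the 50 rest on few counts, such as Mcm3 (3 counts in 1 CB library) and CycE (8 in 1 R4d library). Nothing is read from them.

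Single members of these lists give the scale. Geminin, the inhibitor of licensing, averaged 41.4 ± 13.6 CPM in R4d, 24.9 ± 32.6 in PEN2 and 27.9 ± 16.4 in CB (SD, n = 7, 14 and 8). RfC4, a subunit of the clamp loader, averaged 38.5 CPM in R4d, 48.6 in PEN2 and 39.8 in CB. E2f1, the transcription factor that drives S-phase genes, averaged 160 CPM in R4d, 255 in PEN2 and 147 in CB. None of these 3 passed the edgeR test in either comparison. PCNA, the sliding clamp, and Cdc6, which loads the helicase, had 0 counts in R4d, as did 19 of the 50 genes in all, against 18 of 50 in PEN2 and 8 of 50 in CB. Summed over the 50 genes, levels ran from 539 to 795 CPM in R4d, from 336 to 1030 in PEN2 and from 473 to 645 in CB, so the groups overlapped.

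Markers of neural progenitors were low in R4d and PEN2 alike, with a median summed level of 0 CPM in each and 9.17 in CB. Of the 6 markers, dpn, wor, ase, grh and insc had 0 counts in all 7 R4d libraries. The sixth, mira, averaged 1.14 CPM in R4d, 1.94 in PEN2 and 1.88 in CB (8, 13 and 6 counts). The summed level of the 6 was 0 to 7.99 CPM in R4d, 0 to 34.9 in PEN2 and 5.15 to 17.1 in CB.

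**Figure D3:**
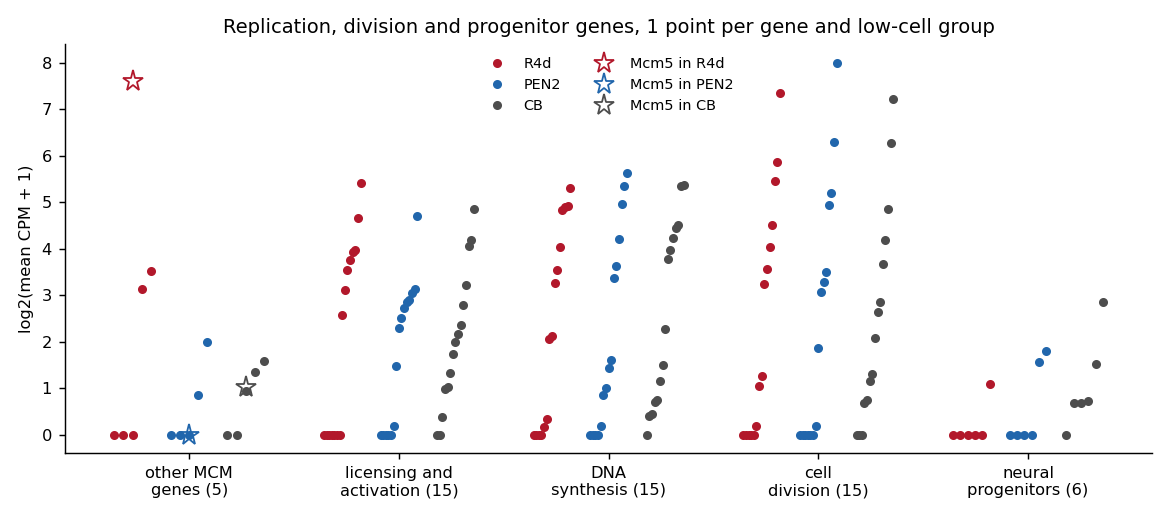
Mean level of each gene of the replication, division and progenitor lists in R4d, PEN2 and CB, as log2(mean CPM + 1) on the vertical axis, not scaled to gene length; stars mark Mcm5. Mcm5 in R4d stands at 193 CPM, whereas the highest of the 5 other MCM genes in R4d averages 10.5 CPM.

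Among 4346 other genes with a mean of at least 20 CPM in R4d, the pattern over all 29 low-cell libraries was compared with each member by Pearson's r of log2(CPM + 1). The points share libraries, and the difference between the 3 groups sets most of each r, so it is given as a description. Nearest to CG14687 were D (r = 0.98), which encodes the Sox factor Dichaete, HLH3B (0.98), Pka-C3 (0.98), grn (0.97) and Sox21b (0.97). All 5 had levels in CB of 10.9 to 88.2 CPM, and all but Pka-C3, a kinase subunit, encode transcription factors. Nearest to CG14342 were CG32669 (0.99), CG14354 (0.99), CG12836 (0.99), Idgf5 (0.98) and mthl8 (0.98), and nearest to Mcm5 were CG12836 (0.99), CG32669 (0.97), CG18598 (0.97), CG14354 (0.97) and asRNA:CR45822 (0.97). CG12836, CG32669 and CG14354 appear for both. Whether the antisense RNA was told apart from its partner depends on strand-aware counting, which is not stated.

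Genes that stood far above both PEN2 and CB in R4d were few. R4d was the only ring neuron type sequenced, so restriction to R4d was not tested. With at least 20 CPM in R4d and at least 20 times the mean of both PEN2 and CB, 21 genes were found among 4349 with at least 20 CPM in R4d, and the 3 members are among the 21. In the authors' deposited table of CB over R4d, CG14687 stands first of 17713 features by p-value, CG14342 stands at place 85 and Mcm5 at place 165. That deposited ranking comes from the contrast on which the genes were chosen.

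The bulk libraries were not used in the choice. Those of PEN2, like the PEN2 plates below, share type and driver line with low-cell libraries that the choice used. Values near 0 in PEN2 are therefore no independent check, while the types D7, EPG and PEG were not part of the choice. The unit of the bulk values is FPKM, which scales fragments by the length of the gene and the size of the library. CG14687 was listed at 0 in all 4 D7, all 4 EPG and both PEN2 libraries and at 0 and 0.05 FPKM in PEG, against 13.1 and 15.6 FPKM in WB. CG14342 was listed at 0 in all 12 sorted libraries, against 0.26 and 0.68 FPKM in WB. Mcm5 was listed at 0 in 11 of 12 sorted libraries and at 0.01 FPKM in 1 D7 library of line SS30295, against 0.54 and 0.17 FPKM in WB. All sorted libraries thus lay below both WB libraries for 3 of 3 members, as they did for 28.5% of the 16084 genes above 0 in any bulk library. For the PEN2 libraries among them this order is not independent of the choice, so 3 of 3 is not set against that share. In WB, 85.4% of the 15747 genes above 0 lay below the mean of CG14687, 34.2% below that of CG14342 and 29.7% below that of Mcm5.

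Only CG14687 passed the filter of 1 FPKM in 2 libraries, and it passed through WB alone, so it had to differ and no test is read from it. As fitted on log2(scaled FPKM + 1), the difference from WB was -3.07 for the D7, EPG and PEN2 types and -3.03 for PEG. Its size depends on the added 1, since these types stand at or next to 0, and it is no fold change. Between the 4 sorted types there was likewise nothing to test, with 11 of 12 libraries at 0.

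The authors' deposited tables, in which a positive log2 fold change means higher in brain RNA, compare these same bulk libraries. In the authors' deposited table for D7, CG14687 had 6.92 at an FDR of 0.0333, and in that for EPG 6.93 at 0.0482. In the authors' deposited tables for PEG and PEN2 it had 6.78 at 0.115 and 6.89 at 0.0804, which do not pass 0.05. For CG14342 and Mcm5 the authors' deposited bulk tables gave FDR values of 0.469 to 0.648. The authors' deposited low-cell table of CB over PEN2 gave CG14687 7.37, CG14342 0 and Mcm5 3.21.

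The 5 other MCM genes were low in WB as well, on a scale per gene length. Mcm5 stood at 0.54 and 0.17 FPKM in the 2 WB libraries, dpa at 0.49 and 0.64, Mcm6 at 0.49 and 0.33, Mcm2 at 0.2 and 0.04, Mcm3 at 0.19 and 0.19 and Mcm7 at 0.12 and 0.07. In the 12 sorted libraries dpa was above 0 in 9, Mcm6 in 6, Mcm3 in 4, Mcm7 in 2, Mcm5 in 1 and Mcm2 in 0. The highest sorted value of dpa was 8.4 FPKM and that of Mcm5 was 0.01.

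**Figure D4:**
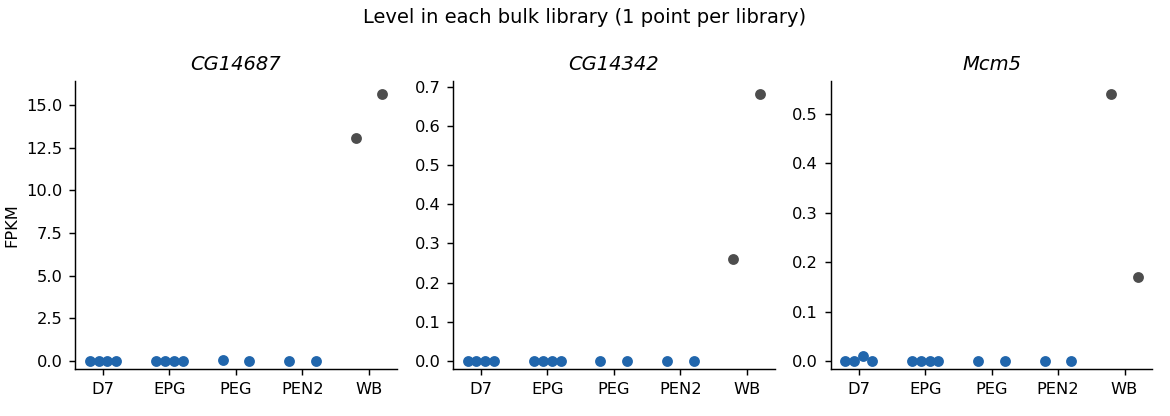
FPKM of each gene on the vertical axis in every bulk library, by type on the horizontal axis, 1 point per library and a scale of its own in each panel. Sorted types stand at 0.05 FPKM or less for all 3 genes, and WB at 13.1 and 15.6 for CG14687.

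Most single-cell wells of PEN1 and PEN2 plates held 0 counts of the members. Positions E12 to H12 were left out, because 4 control wells of spike-in or whole brain RNA stand on each plate at places the labels do not give. On PEN1 plates 4, 5 and 6 these positions held 0 counts of CG14687, unlike on the other plates. On those plates control wells may remain among the wells counted, and cell wells may have been left out. Of the other 1012 wells, 742 had at least 500 genes, 380 of PEN1 and 362 of PEN2. No reporter count was required, so a kept well need not hold a reporter-positive neuron of its type. In wells with counts of a member, reporter counts ran from 0 to 1539. CG14687 had 30 counts in PEN1, in 11 of 380 wells (2.89%, exact 95% interval 1.45 to 5.12%), and 19 counts in PEN2, in 18 of 362 wells (4.97%, 2.97 to 7.74%). CG14342 had 1 count in PEN1 and 0 in PEN2, where 0 of 362 wells allows a share of up to 0.83%, a limit on wells with a count and not on cells that express the gene. Mcm5 had 4 counts in 4 PEN1 wells (1.05%, 0.288 to 2.67%) and 45 counts in 13 PEN2 wells (3.59%, 1.93 to 6.06%).

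Pooled over plates, these shares lay below that of a glial gene in the same wells. The astrocyte gene alrm, which neurons should lack, had counts in 22 of 380 PEN1 wells (5.79%) and 25 of 362 PEN2 wells (6.91%), so the members' shares are not read as expression, and the source of the counts was not tested. On some plates the order was the other way. CG14687 had counts in 8 of 72 wells of PEN2 plate 1 and 8 of 79 wells of PEN2 plate 5, and alrm in 6 and 5 of them. On PEN1 plate 4 CG14687 had counts in 1 of 57 wells, and alrm in 0. On PEN2 plate 3 Mcm5 had counts in 1 of 50 wells, and alrm in 0. The pan-neuronal gene elav had counts in 75.0% of PEN1 wells and 75.7% of PEN2 wells. Pooled over the plates of a type, the members stood at 1.33 CPM (CG14687), 0.0443 (CG14342) and 0.177 (Mcm5) in PEN1, against 0.798, 0 and 1.89 CPM in PEN2. None of the 3 passed the filter among the 6249 genes tested between PEN1 and PEN2 plates, so no test was made.

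Single wells held many of the members' counts. Well F04 of PEN2 plate 4 held 27 of the 45 Mcm5 counts of PEN2, with 1129 reporter counts, 141 of ChAT and 111 of elav among 94167 gene counts. Well D01 of the same plate held 5 more. Well D03 of PEN1 plate 3 held 18 of the 30 CG14687 counts of PEN1 among 897320 gene counts, the largest total of any well kept; it also held 328 counts of Gad1 and 1479 of ChAT.

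**Figure D5:**
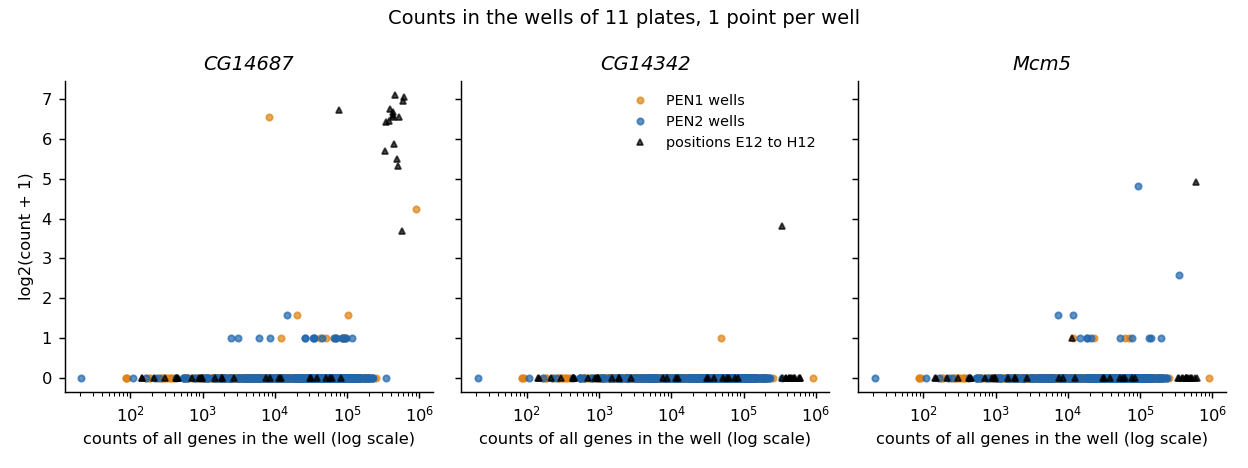
Counts of each gene, as log2(count + 1), against the counts of all genes in the well on a log scale, 1 point per well of 11 plates; triangles are positions E12 to H12. Most cell wells stand at 0 for all 3 genes, and the CG14687 counts of 12 to 136 at 16 positions E12 to H12 share their range with 2 cell wells, at 18 and 93 counts.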

How the data were processed

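The bulk table held FPKM, deposited by the authors without a unit in the header; the unit was inferred from the values, and read depth is unknown. The low-cell and plate tables held whole-number counts per gene, deposited by the authors without normalization. The authors' comparison tables held log2 fold changes (brain over sorted cells), p-values and FDR, per the file headers. STARsolo and edgeR are named in the submitters' processing notes without versions; genome build and strandedness are not given in the sources used here.

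Spike-ins and transgenes were left out of totals. Counts were tested with edgeR 4.0.16 (TMM, filterByExpr, quasi-likelihood; all 29 low-cell libraries in 1 fit), FPKM with limma 3.58.1 on log2(TMM-scaled FPKM + 1), kept at 1 FPKM in 2 of 14 libraries (no test is read for the members), with Benjamini-Hochberg adjustment over all genes and calls under 0.05. Plates were summed over wells with at least 500 genes. Alternatives were DESeq2 1.42.0, other scalings, pseudocounts of 0.1 and 5, no filter, fewer groups, a replicate block and left-out libraries or plates. Scripts ran in R 4.3.3 and Python 3.11.15 and were tested on simulated data. Intervals and floors (3 counts) cover counting error only.

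Members and gene lists were chosen with earlier results of these data known. Named were the 3 members, the 5 other MCM genes, up to 3 called genes and 1 other per list, the 2 nearest genes on each side (1 of them is not reported here) and the 5 most alike genes. Chosen after their values were seen were VGAT, Sld5, DNApol-delta, PCNA, Cdc6, the glial and progenitor markers at 0 and the single wells. The labels do not say whether low-cell or bulk replicates came from separate dissections, so a p-value reflects library-to-library spread, which may be technical. Where labels differed on a driver line, the sample characteristics were followed.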

Additional observations from a re-analysis of the deposited data

Results flagged for a closer look

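In 5 of 18 groups of 4 to 10 libraries or plates examined, 1 value lay far from the rest. The rule's nominal rate of about 1 in 20 does not hold for groups mostly at 0, so the 5 are not set against it. Groups wholly at 0 are among the 18 and could not be flagged. Where all other values are 0, as for CG14342 on PEN1 plates and Mcm5 in D7, any single value above 0 is flagged. Mcm5 reached 5.87 CPM in CB library 4, where 6 of 8 CB libraries held 0. Mcm5 was listed at 0.01 FPKM in replicate 1 of D7 line SS30295, with the other 3 D7 libraries at 0. Mcm5 reached 6.01 CPM over PEN2 plate 4, against 0.346 to 1.19 CPM over the other 4 PEN2 plates. CG14687 reached 6.68 CPM over PEN1 plate 3, against 0 to 2.25 CPM over the other 5 PEN1 plates. CG14342 reached 0.313 CPM over PEN1 plate 6, on 1 count, with 0 on the other 5.

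Outside the wells used for the comparisons, well F05 of PEN1 plate 4 held 93 counts of CG14687 among 8351 gene counts of 372 genes, with 177 reporter counts and 0 counts of the other 2 members. At positions E12 to H12, CG14687 summed to 1360 counts over 16 of 44 wells on 8 of 11 plates, from 12 to 136 a well. Mcm5 summed to 30 counts there, 29 of them in well G12 of PEN2 plate 2, and CG14342 to 13, all in well H12 of PEN1 plate 2. Which of these wells hold brain RNA is not given in the labels, and the source of these counts was not tested.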

How the results depend on the processing

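CG14687 stands at or next to 0 in every sorted bulk library, so its direction against WB is fixed under any setting and shows no stability. The log2 difference ran from -6.23 (pseudocount 0.1) to -1.31 (pseudocount 5) in D7, EPG and PEN2 and from -5.89 to -1.30 in PEG; leaving out single libraries gave -3.18 to -2.94 in D7, EPG and PEN2 and -3.14 to -2.90 in PEG. Without scaling it was -3.93, -3.93, -3.90 and -3.93 in D7, EPG, PEG and PEN2, and the median of all genes was -0.92 in D7, against -0.21 with it. With the replicate number as a replicate block the differences were -3.07, -3.07, -3.03 and -3.07; same-numbered libraries did not deviate together (correlations of -0.04 to 0.02 over 10 pairs of types). Between PEN1 and PEN2 plates the members were tested only without the filter, where the lowest adjusted p was 0.531 (Mcm5, edgeR). Of the 50 replication and division genes, without the filter 9 were called lower in R4d than CB, and 4 higher and 4 lower in R4d than PEN2; without scaling 1, E2f1, was called lower than PEN2. Calls over all genes without the filter are given with the replication genes above. The cause of these changes was not tested. Without scaling the median of all genes in R4d over PEN2 was -0.08, against 0.05. Total calls moved by over 1.5 times in R4d against CB with only the 2 types fitted (2496 against 1524) and without the filter (2850), and against PEN2 without the filter (2226 against 1291). With upper-quartile scaling, chosen after seeing the data, CG14687 stood 86.1-fold over CB and CG14342 at least 251-fold; with spike-ins in the totals they stood at 70.6 and at least 206.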
